A study of Mus musculus with 40 samples.

Results

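Bacterial RNA from the cecal contents of mice was compared between a Western-type diet with 2.5% broccoli powder and the same diet without it. The groups were C57BL/6 mice, 3 weeks old at the start, that ate the Total Western Diet (TWD, a rodent diet built on typical Western nutrient intakes) for 6 weeks and then, for 3 weeks, TWD with 2.5% broccoli powder (10 libraries, called 2.5%) or TWD with 0% broccoli powder (10 libraries, called 0%). These are 20 of the 40 libraries of the study, chosen by their treatment label, and the libraries at the other 2 doses entered only 1 alternative fit. The comparison asks which functions of each gut bacterium differed with broccoli, and whether the same functions differed in several bacteria. RNA was counted on 6 bacterial genomes, named as deposited: D. muris, F. rodentium, X. muris, Acetatifactor, L.bacterium335 and Alistipes. Each genome was analysed alone with the libraries that held at least 10000 counts on it. That left, at 2.5% and at 0%, 9 and 9 libraries for D. muris, 8 and 10 for F. rodentium, 9 and 7 for X. muris, 10 and 10 for Acetatifactor and for L.bacterium335, and 7 and 0 for Alistipes.

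The cecum is the chamber of the mouse gut in which bacteria ferment what the host has not absorbed. Broccoli brings cell wall polysaccharides, above all pectin, whose galacturonate is taken apart by the uronate pathway, and the sugars released feed glycolysis and the fermentations that make acetate, propionate and butyrate. Bacteria that grow faster usually devote more of their messenger RNA to ribosomes, and genes of uptake and breakdown are usually induced by their substrates. A count here is a sequencing read assigned to a gene of 1 genome. A level is given as CPM, the count scaled to a fixed total over the tested genes of that genome in that library. A CPM thus says how a gene stands among the genes of its own bacterium, and levels are not compared between genes because gene lengths were not used. In RNA from whole contents, fewer cells of a bacterium and less RNA per cell cannot be told apart.

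The 2.5% libraries held 236483 to 1670693 counts over the 6 tables and the 0% libraries 306275 to 1902264. Of these, F. rodentium took a median of 6.32% at 2.5% and 77.5% at 0%, L.bacterium335 50.7% and 11.3%, Acetatifactor 14.5% and 5.6%, X. muris 9.96% and 2.53%, D. muris 7.78% and 2.79%, and Alistipes 1.46% and 0.0200%. The totals behind the comparisons therefore differed with diet: the kept libraries held 62480 to 172785 counts at 2.5% and 13287 to 40647 at 0% on D. muris, and 46172 to 289859 at 2.5% and 11201 to 46069 at 0% on X. muris. In these bacteria the totals of the groups did not overlap, so that diet and depth cannot be told apart. Library 2.5% replicate 9 stood apart: it was below 10000 counts on D. muris, F. rodentium and X. muris, and on L.bacterium335 it had counts on few features, as the 0% libraries did. Nothing in the labels says whether the libraries of a group came from separately housed animals, so p-values measure the spread between these libraries. No pair of libraries within a group was identical.

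Broccoli went with a broader set of detected genes in 4 of the 5 bacteria that could be compared. When 10000 counts were drawn from each library, L.bacterium335 had a count on 1564 ± 435 features at 2.5% and 372 ± 51.4 at 0% (SD, n = 10 each), a difference of 1192 (permutation test, two-sided, adjusted p = 0.0002 over 10 comparisons). Acetatifactor had 1675 ± 518 at 2.5% and 631 ± 222 at 0% (n = 10 each, permutation test, adjusted p = 0.0003). X. muris had 1233 ± 145 at 2.5% and 512 ± 289 at 0% (n = 9 and 7, exact permutation test, adjusted p = 0.000656), and D. muris 1444 ± 93.6 at 2.5% and 1256 ± 74.7 at 0% (n = 9 each, exact permutation test, adjusted p = 0.000343). F. rodentium, with 1159 ± 114 features at 2.5% and 1123 ± 54.0 at 0%, did not pass the test (n = 8 and 10, exact permutation test, adjusted p = 0.438). The ranges of the groups overlapped in all 5 bacteria.

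The counterpart was a smaller weight of a few dominant features. The 5 most counted features of a library held 54.1% ± 8.07 of the X. muris counts at 2.5% and 86.2% ± 11.4 at 0% (SD, n = 9 and 7, exact permutation test, adjusted p = 0.000656). They held 24.2% ± 19.6 of the L.bacterium335 counts at 2.5% and 74.9% ± 7.16 at 0% (n = 10 each, permutation test, adjusted p = 0.0002), with 2.5% replicate 9 at 79.1%. In Acetatifactor they held 30% ± 9.50 at 2.5% and 55.5% ± 6.44 at 0% (n = 10 each, permutation test, adjusted p = 0.0002), and in D. muris 6.62% ± 0.883 at 2.5% and 11.6% ± 2.80 at 0% (n = 9 each, exact permutation test, adjusted p = 0.000329). In F. rodentium the shares were 16.0% ± 1.2 at 2.5% and 16.0% ± 1.57 at 0% (n = 8 and 10, exact permutation test, adjusted p = 0.916). By median share at 0%, the first feature with a symbol ranked 11 in X. muris, 10 in L.bacterium335 and 13 in Acetatifactor. What the features above these ranks encode is thus not known here. Stable RNAs were left out by symbol only, so some without a symbol could be among them.

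**Figure D1:**
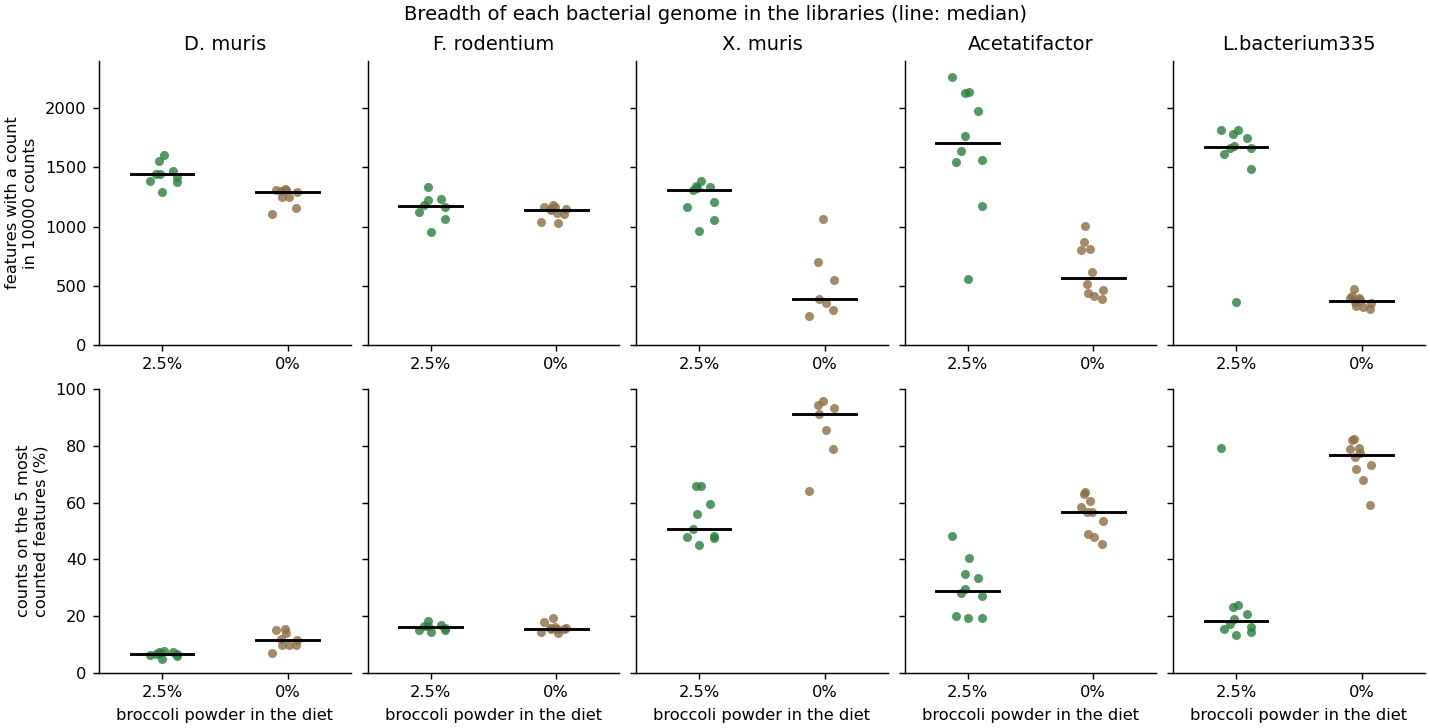
Breadth of each genome. Upper panels show the number of features with a count when 10000 counts are drawn from a library, lower panels the percent of counts on the 5 most counted features, with 1 point per kept library, a line at the median and 2.5% left of 0%. The libraries at 2.5% lie above those at 0% in the upper panels of X. muris, Acetatifactor and L.bacterium335 apart from a few points, and in F. rodentium the groups cover the same range.

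The number of genes that passed the test differed by bacterium. Genes were tested by edgeR's quasi-likelihood test, two-sided, and the p-values adjusted by the Benjamini-Hochberg method within each genome, with a threshold of 0.05. In D. muris 31 of 985 tested genes were higher at 2.5% (3.15%) and 66 lower (6.7%), and in F. rodentium 68 of 1554 were higher (4.38%) and 45 lower (2.9%). In X. muris 86 of 769 were higher (11.2%) and 10 lower (1.3%), in Acetatifactor 349 of 673 were higher (51.9%) and 163 lower (24.2%), and in L.bacterium335 1114 of 1360 were higher (81.9%) and 79 lower (5.81%). In either direction these were 9.85% of the tested genes in D. muris, 7.27% in F. rodentium, 12.5% in X. muris, 76.1% in Acetatifactor and 87.7% in L.bacterium335. In L.bacterium335 916 of the 1360 genes, 67.4%, had 0 counts in all 10 libraries at 0%. These 916 genes passed the filter on low counts only through the 2.5% libraries and so had to be higher. The same held for 2 genes in F. rodentium, recD among them, 3 in X. muris and 2 in Acetatifactor. With filterByExpr as preset, an alternative tried after the data were seen, 222 genes of L.bacterium335 were tested, of which 68 were higher and 27 lower, with a median log2 fold change of 0.10. In Acetatifactor the preset left 365 tested genes, 151 higher and 55 lower, with a median of 0.66. The counts of higher genes by function in L.bacterium335, and in part in Acetatifactor, were thus set by the filter. They are given below as descriptions beside these percentages and support no difference between functions. The groups did not overlap for 11 of 985 tested genes in D. muris (1.12%), 9 of 1554 in F. rodentium (0.579%), 45 of 769 in X. muris (5.85%, 38 of them called), 20 of 673 in Acetatifactor (2.97%) and 73 of 1360 in L.bacterium335 (5.37%).

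The split between higher and lower genes depended on the scaling. The median log2 fold change over all tested genes was 0.09 in D. muris, 0.01 in F. rodentium, 0.54 in X. muris and 1.77 in Acetatifactor. In L.bacterium335 the fitted median was 8.78, a value that depends on how genes without a count at 0% are fitted and is no measure of size. Its 79 lower genes numbered 22 with RLE factors and 192 without a scaling factor, and 12 to 65 when 1 library at a time was left out. With RLE factors (the size factors of DESeq2) in place of TMM factors, it was 3.73 in Acetatifactor, where 441 genes were then higher and 16 lower, and 0.19 in X. muris, where 36 were higher and 20 lower. Without any scaling factor it was 2.77 in Acetatifactor (398 higher, 78 lower), 1.84 in X. muris (591 higher, 6 lower), 0.23 in D. muris (58 higher, 59 lower) and 0.14 in F. rodentium (82 higher, 20 lower). A lower gene in Acetatifactor is thus lower relative to the other genes only: unscaled, its 163 lower genes held 15624 to 61706 counts per library at 2.5% (median 25192.5) and 16858 to 44688 at 0% (median 30675.5). The lower genes of D. muris held more counts at 2.5% (median 8322) than at 0% (5937), and so did those of X. muris (72186 and 16891). In F. rodentium the medians were 2557 at 2.5% and 21555 at 0%, and in L.bacterium335 37986 and 46609. Lower is thus relative to the same genome in every bacterium. With the total of each library on the genome added to the model, no gene was called in D. muris, 11 higher and 13 lower in F. rodentium, 11 and 5 in X. muris and 3 and 15 in Acetatifactor. Of the genes named below, this left the calls of frlB, manZ_1, mglB, mglC, feoB_1, gpmA_4, pfkA and recD in F. rodentium, trmB in X. muris and rcsC_8 in Acetatifactor, and ended those of the other called genes whose values are given in these 4 bacteria.

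Genes for the machinery of growth showed few calls in D. muris, F. rodentium and X. muris, while those tested in Acetatifactor and L.bacterium335 were mostly higher, as were most tested genes of these 2 bacteria. Of the genes for ribosomal proteins, 2 of 37 tested rose in D. muris, 0 of 43 changed in F. rodentium and 0 of 29 in X. muris, while 11 of 11 rose in Acetatifactor and 30 of 32 in L.bacterium335. The median log2 fold change of these genes was -0.04 in D. muris, 0.09 in F. rodentium, 0.24 in X. muris and 2.65 in Acetatifactor, beside the medians of all tested genes given above. In L.bacterium335 their fitted median of 7.92 was below that of all its tested genes, 8.78, and the share called was near the 81.9% called higher over all of them. In edgeR 2 of these genes in F. rodentium and 1 in X. muris had an unadjusted p under 0.05, and DESeq2 called 2 higher in F. rodentium and 2 lower in X. muris. The aminoacyl-tRNA ligases, which load amino acids onto transfer RNA, gave the same picture: 0 of 20 changed in D. muris and 0 of 18 in F. rodentium, 1 of 16 rose in X. muris, 5 of 5 in Acetatifactor and 16 of 16 in L.bacterium335. For the zero counts, 1 gene in D. muris and 3 in F. rodentium had an unadjusted p under 0.05 in edgeR, and DESeq2 called 0 and 1 (lower). The X. muris counts depended on the scaling: without a scaling factor 22 of 29 ribosomal protein genes and 13 of 16 ligase genes were higher, and with RLE factors 0 and 0, with a ribosomal median of -0.14. In Acetatifactor 11 of 11 ribosomal protein genes rose under each of these scalings.

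In D. muris the 2 ribosomal genes that rose were rpsS, of the small subunit, and rplB, of the large subunit. The rplB levels were 1748 to 4283 CPM (median 3769) at 2.5% and 1463 to 3471 CPM (median 2013) at 0%, a log2 fold change of 0.66 ± 0.19 (adjusted p = 0.0235). The ranges overlapped, and the call was lost without 2.5% replicate 5 or 7 (adjusted p up to 0.0511). For rpsS the levels were 117 to 3120.5 CPM (median 2338) at 2.5% and 89.6 to 1329 CPM (median 425) at 0% (1.90 ± 0.57, adjusted p = 0.0376), and the call was lost in 10 of 18 fits that each left out 1 library. In F. rodentium rplB was at 645 to 1111 CPM (median 739) at 2.5% and 483 to 887 CPM (median 773) at 0%, with a log2 fold change of 0.09 ± 0.16 (adjusted p = 0.801). The elongation factor gene tuf, whose product brings transfer RNA to the ribosome, fell in D. muris, with 2549 to 8028 CPM (median 4278) at 2.5% and 5614 to 14288 CPM (median 7887) at 0% (-0.78 ± 0.20, adjusted p = 0.00883). That call was lost when libraries below 10000 counts were kept (adjusted p = 0.226). In F. rodentium tuf stood at 15666 to 23181 CPM (median 18982) at 2.5% and 11310.5 to 22536 CPM (median 19249) at 0% (0.05 ± 0.16, adjusted p = 0.892). In X. muris its log2 fold change was -0.13 ± 0.31 (adjusted p = 0.805), and the sign turned without a scaling factor (1.18, adjusted p = 0.0202). In L.bacterium335 it rose, with 239 to 12488 CPM (median 8597) at 2.5% and 50.0 to 1787 CPM (median 131) at 0% (4.44 ± 0.80, adjusted p = 3.04e-08), and the ranges overlapped.

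Single genes of transcription and DNA topology fell in D. muris and F. rodentium. Of the genes for RNA polymerase and its factors 5 of 5 rose in Acetatifactor, beside 51.9% of all its tested genes. Of the same list 1 of 10 fell in D. muris, 1 of 10 fell in F. rodentium and 0 of 6 changed in X. muris. In F. rodentium the gene was greA, which rescues stalled RNA polymerase, with 127 to 329.9 CPM (median 274) at 2.5% and 367 to 643 CPM (median 457) at 0% (-0.85 ± 0.19, adjusted p = 0.00712). The groups did not overlap, and the same gene gave -0.12 ± 0.37 in D. muris (adjusted p = 0.889) and 0.83 ± 0.62 in X. muris (adjusted p = 0.386). In D. muris the gene was rpoE_1, of a sigma factor (-1.08 ± 0.34, adjusted p = 0.0372), a call lost in 11 of 18 fits that each left out 1 library. A gene for the B subunit of DNA gyrase, which supercoils DNA, fell in both D. muris (gyrB_1, -0.62 ± 0.20, adjusted p = 0.047) and F. rodentium (gyrB, -0.58 ± 0.18, adjusted p = 0.0481). These calls were lost in 13 of 18 and 11 of 18 fits that each left out 1 library, and the other copy in D. muris, gyrB_2, had a log2 fold change of 0.53 ± 0.27 (adjusted p = 0.264). In X. muris gyrB gave 0.66 ± 0.43 (adjusted p = 0.313).

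**Figure D2:**
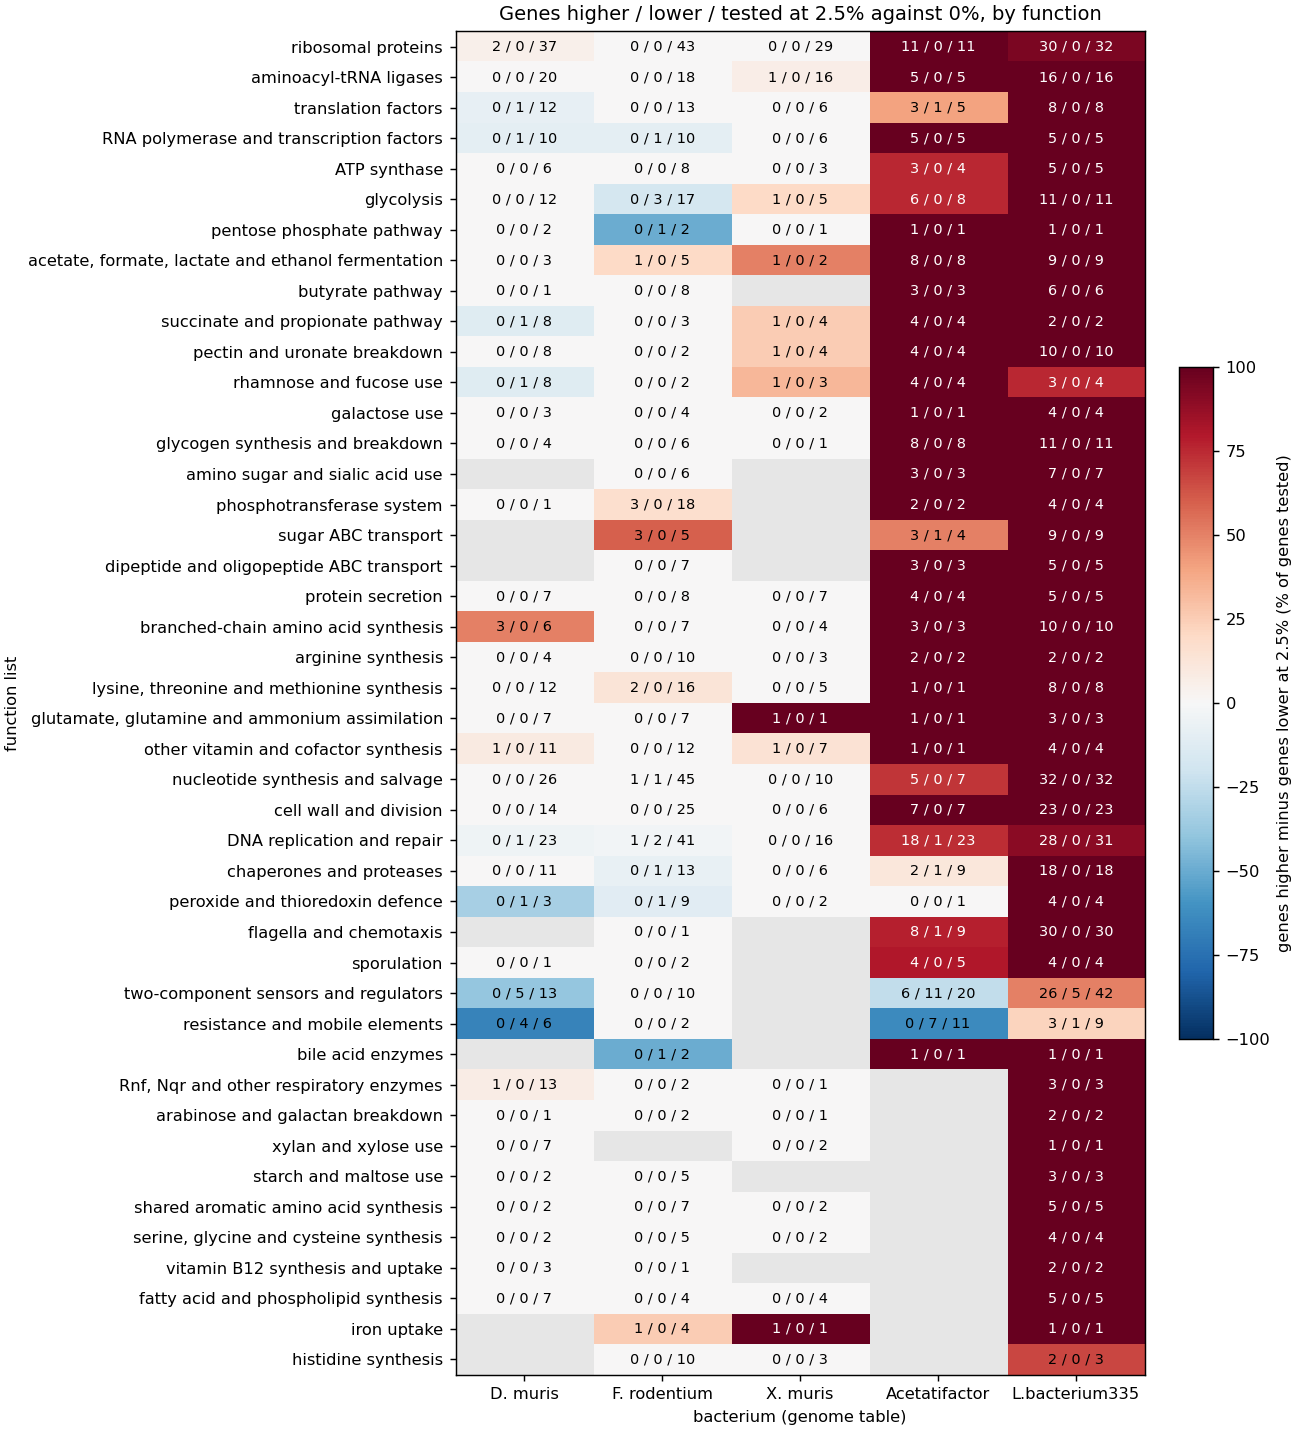
Functions by bacterium. Each cell gives the number of genes higher at 2.5%, lower at 2.5% and tested, for function lists tested in at least 3 of the 5 bacteria, and its colour the number higher minus the number lower as a percent of those tested. The columns of D. muris, F. rodentium and X. muris are mostly pale and those of Acetatifactor and L.bacterium335 mostly red, as are most of their tested genes, except in the rows of sensors, resistance and mobile elements.

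Genes for the breakdown of pectin and uronates were widely present, but rose in different numbers. Of those tested, 0 of 8 changed in D. muris and 0 of 2 in F. rodentium, while 1 of 4 rose in X. muris, 4 of 4 in Acetatifactor and 10 of 10 in L.bacterium335. Over all tested genes 11.2% rose in X. muris, 51.9% in Acetatifactor and 81.9% in L.bacterium335, the same order. The uronate isomerase gene uxaC, whose enzyme starts the galacturonate pathway, is given as an example. In X. muris, Acetatifactor and L.bacterium335 it could not have passed the filter on low counts without the 2.5% libraries. A rise in these bacteria was therefore favoured in advance. In D. muris it was at 1789 to 2874 CPM (median 2400.3) at 2.5% and 1100.5 to 3979.7 CPM (median 3089) at 0%, with overlapping ranges and a log2 fold change of -0.24 ± 0.20 (adjusted p = 0.531). In X. muris it was at 141 to 753 CPM (median 434) at 2.5% and 0 to 313 CPM (median 0) at 0%, where 4 of the 7 libraries at 0% had no count, and it rose (2.26 ± 0.58, adjusted p = 0.00256). In Acetatifactor it was at 0 to 723 CPM (median 347) at 2.5% and 0 to 221 CPM (median 0) at 0% and rose (3.09 ± 0.86, adjusted p = 0.00258), with 7 of 10 libraries at 0% without a count. In L.bacterium335 it had 5562 counts at 2.5% and 0 counts in all 10 libraries at 0%, so it was at least 581-fold higher, taking 3 counts over the group as the floor. The whole list held a median of 0.930% of the D. muris counts at 2.5% and 0.899% at 0%, with overlapping ranges. In the D. muris and F. rodentium lists 0 genes had an unadjusted p under 0.05 in edgeR and DESeq2 called 0, and without a scaling factor 3 of 4 were higher in X. muris.

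Rhamnose and fucose genes, for sugars that pectin and mucus carry, are given beside the same shares over all tested genes, and no pattern of the function is read from them. In D. muris 1 of 8 fell (rhaS_3, named for a rhamnose regulator), in F. rodentium 0 of 2 changed, in X. muris 1 of 3 rose, and in Acetatifactor 4 of 4 and in L.bacterium335 3 of 4 rose. The X. muris gene was rhaD, of rhamnulose phosphate aldolase, with 197 to 433 CPM (median 265) at 2.5% and 0 to 237 CPM (median 92.7) at 0% (1.78 ± 0.64, adjusted p = 0.0442), and its call was lost in 12 of 16 fits that each left out 1 library and with RLE factors (adjusted p = 0.186). Xylan and xylose genes, mostly of D. muris, showed no call there (0 of 7). Glycogen genes, for a store of glucose inside the cell, showed 0 of 4 calls in D. muris, 0 of 6 in F. rodentium and 0 of 1 in X. muris, and 8 of 8 rose in Acetatifactor and 11 of 11 in L.bacterium335.

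Uptake systems, which differ between these bacteria, held large changes of single genes. D. muris imports polysaccharides through SusC and SusD, an outer membrane channel and its lipoprotein lid, and 1 of its 4 tested genes for them fell. This was susC_3, with 752 to 2977 CPM (median 1872) at 2.5% and 3027 to 18028 CPM (median 14091) at 0%, and no library at 2.5% reached the lowest at 0% on this scale (-2.78 ± 0.30, adjusted p = 1.05e-06). As unscaled shares of the counts, the highest at 2.5% and the lowest at 0% were both 0.287%. The other copies did not pass: susC_1 gave -0.14 ± 0.47 (adjusted p = 0.897), susC_2 -0.53 ± 0.29 (adjusted p = 0.326) and susD -0.82 ± 0.30 (adjusted p = 0.102). The largest fall of a named D. muris gene was that of glcA, with 34.4 to 264 CPM (median 159) at 2.5% and 222 to 2626 CPM (median 1822) at 0% (-3.40 ± 0.39, adjusted p = 1.05e-06). As a list, the SusC and SusD genes held 0.918% to 1.08% of the D. muris counts at 2.5% and 1.68% to 2.77% at 0%, without overlap. This list includes susC_3, whose median share was 0.179% at 2.5% and 1.21% at 0%. The list without susC_3 was not examined. How reads shared by copies were counted is not stated, so values of numbered copies are uncertain.

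F. rodentium takes up sugars through phosphotransferase systems, which phosphorylate them on entry, and through ABC transporters. Of its phosphotransferase genes 3 of 18 rose, and of its sugar ABC transport genes 3 of 5, against 4.38% of all its tested genes. The gene manZ_1, of a mannose permease, was at 28 to 997 CPM (median 344) at 2.5% and 9.03 to 62.8 CPM (median 23.1) at 0% (3.72 ± 0.48, adjusted p = 1.2e-05), and agaC, of an amino sugar permease, at 85.9 to 1484 CPM (median 389) at 2.5% and 10.7 to 111 CPM (median 38.5) at 0% (2.95 ± 0.52, adjusted p = 0.000992). In both genes a library at 2.5% lay within the range at 0%. The third was gatC_2, a symbol shared by a galactitol permease and a transfer RNA amidotransferase. All 3 tested genes of the galactose transporter Mgl rose: its binding protein gene mglB was at 98.8 to 325 CPM (median 166) at 2.5% and 0 to 66.3 CPM (median 27.4) at 0% (2.46 ± 0.38, adjusted p = 0.000165), with no overlap. The permease gene mglC gave 2.67 ± 0.47 (adjusted p = 0.00081) and the ATPase gene mglA 1.89 ± 0.56 (adjusted p = 0.0404), a call lost in 5 of 10 fits that each left out 1 library. In L.bacterium335 9 of 9 sugar ABC genes rose, beside 81.9% of all its tested genes. Among them was mglB_1, with 59.7 to 119817 CPM (median 53034) at 2.5% and 0 to 151 CPM (median 9.85) at 0% (10.67 ± 1.00, adjusted p = 7.47e-24). With such levels at 0%, mglB_1 could not have passed the filter on low counts without the 2.5% libraries. Its rise was therefore favoured in advance.

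The gene frlB of F. rodentium encodes an enzyme that splits phosphorylated fructoselysine, a sugar adduct of lysine formed when food is heated or stored. It was at 165 to 1901 CPM (median 694) at 2.5% and 31.9 to 172 CPM (median 54.5) at 0%, with a small overlap (3.56 ± 0.42, adjusted p = 6.2e-06). An iron uptake gene, feoB, was called higher in X. muris, F. rodentium and L.bacterium335. In X. muris and L.bacterium335 it could not have passed the filter on low counts without the 2.5% libraries. A rise was thus fixed in advance in L.bacterium335 and favoured in X. muris. The ferrous iron transporter gene feoB was at 139.8 to 532 CPM (median 234) at 2.5% and 0 to 113 CPM (median 0) at 0% in X. muris, with no overlap and 6 counts in all at 0% (2.47 ± 0.69, adjusted p = 0.0058). In F. rodentium feoB_1 was at 62.1 to 232 CPM (median 124) at 2.5% and 0 to 59.3 CPM (median 14.3) at 0%, with no overlap (2.53 ± 0.45, adjusted p = 0.00081), while its second copy feoB_2 was at 201 to 413 CPM (median 318) at 2.5% and 218 to 375 CPM (median 275) at 0% (0.15 ± 0.19, adjusted p = 0.676). In L.bacterium335 feoB had 964 counts at 2.5% and 0 at 0%, at least 101-fold higher. Of the 6 iron genes tested in these bacteria, 4 in F. rodentium and 1 each in X. muris and L.bacterium335, 3 rose.

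**Figure D3:**
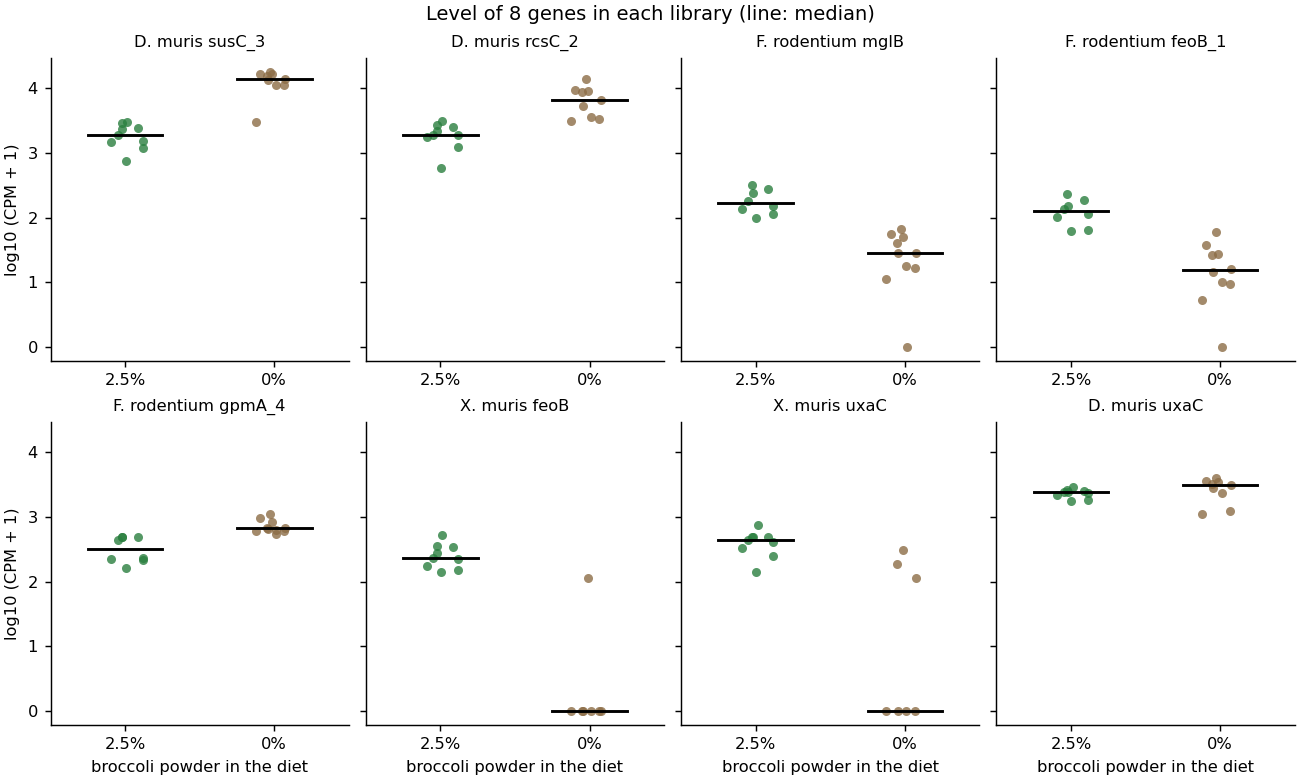
Level of 8 genes in each kept library, as log10 of CPM plus 1, with a line at the median and 2.5% left of 0%. The groups do not overlap for susC_3 and rcsC_2 of D. muris, mglB, feoB_1 and gpmA_4 of F. rodentium and feoB of X. muris, and they overlap for uxaC of both X. muris and D. muris.

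Calls in glycolysis were lower in F. rodentium and higher in the other bacteria that had any. In F. rodentium 3 of 17 glycolysis genes fell, against 2.9% of all its tested genes. In X. muris 1 of 5 rose (11.2% over all tested genes), in Acetatifactor 6 of 8 (51.9%) and in L.bacterium335 11 of 11 (81.9%). In D. muris 0 of 12 were called (1 with an unadjusted p under 0.05 in edgeR, and 1 called higher by DESeq2). The phosphoglycerate mutase gene gpmA_4 of F. rodentium was at 162 to 495 CPM (median 331) at 2.5% and 546 to 1125 CPM (median 668) at 0%, with no overlap (-1.03 ± 0.22, adjusted p = 0.00712). The phosphofructokinase gene pfkA (-0.61 ± 0.17, adjusted p = 0.0298) and the other mutase gene gpmI (-0.49 ± 0.15, adjusted p = 0.0475) fell too, but each lost its call with RLE factors (adjusted p = 0.0666 and 0.0929). The call of pfkA was also lost without 0% replicate 6, 0% replicate 7 or 2.5% replicate 3, and that of gpmI in 13 of 18 such fits. The most counted named gene of F. rodentium, gap, for glyceraldehyde phosphate dehydrogenase, held a median of 5.69% of its counts at 2.5% and 6.09% at 0% (-0.19 ± 0.15, adjusted p = 0.461). The gene rpiA, of ribose phosphate isomerase in the pentose phosphate pathway, fell, with 75.2 to 389 CPM (median 143) at 2.5% and 289.6 to 608 CPM (median 429.9) at 0% (-1.12 ± 0.27, adjusted p = 0.0157). In Acetatifactor gap rose, with 1705 to 7667 CPM (median 4741) at 2.5% and 584 to 3645 CPM (median 994) at 0% (1.74 ± 0.40, adjusted p = 0.000514), and the ranges overlapped.

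In X. muris single genes around pyruvate and glutamate rose under TMM factors, and most of these calls were lost under RLE factors. The glycolysis call was ppdK, of pyruvate phosphate dikinase, with 2594 to 4133 CPM (median 3195) at 2.5% and 861 to 2431 CPM (median 1390.1) at 0% and no overlap (1.02 ± 0.32, adjusted p = 0.0165). Its call was lost without 2.5% replicate 3 (adjusted p = 0.057) and with RLE factors (adjusted p = 0.275). Pyruvate ferredoxin oxidoreductase, nifJ, which turns pyruvate into acetyl-CoA, was at 2155 to 4607 CPM (median 3589) at 2.5% and 371 to 3015 CPM (median 1392) at 0% (1.19 ± 0.32, adjusted p = 0.004, and 0.117 with RLE factors). Glutamate dehydrogenase, gdhA, was at 923 to 1442 CPM (median 1192) at 2.5% and 124 to 927 CPM (median 313) at 0% (1.22 ± 0.38, adjusted p = 0.0165, and 0.138 with RLE factors). The methylmalonyl-CoA epimerase gene mce, of a route to propionate, rose (1.67 ± 0.54, adjusted p = 0.0241), a call lost without 2.5% replicate 3 or 10 and with RLE factors (adjusted p = 0.117). In D. muris another gene of this route, mutB, for methylmalonyl-CoA mutase, fell, with 1791 to 3945 CPM (median 3065) at 2.5% and 3583 to 5311 CPM (median 4579) at 0% (-0.54 ± 0.16, adjusted p = 0.0222). That call was lost in 5 of 18 fits that each left out 1 library and without a scaling factor (adjusted p = 0.0957).

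The butyrate pathway was tested mainly in F. rodentium, where 0 of 8 genes passed (2 with an unadjusted p under 0.05 in edgeR, 0 called by DESeq2), in Acetatifactor, where 3 of 3 rose, and in L.bacterium335, where 6 of 6 rose. Over all tested genes 51.9% rose in Acetatifactor and 81.9% in L.bacterium335. The thiolase gene thlA, which joins acetyl-CoA units as the first step of the pathway, was at 1167 to 3998 CPM (median 2574) at 2.5% and 625.1 to 3268 CPM (median 1891) at 0% in F. rodentium (0.41 ± 0.26, adjusted p = 0.37). In Acetatifactor it was at 0 to 1408 CPM (median 682) at 2.5% and 0 to 561 CPM (median 0) at 0% and rose (3.31 ± 0.84, adjusted p = 0.00125), and in L.bacterium335 it had 2139 counts at 2.5% and 0 at 0%, at least 223-fold higher. The ranges overlapped in F. rodentium and Acetatifactor. In Acetatifactor and L.bacterium335 thlA could not have passed the filter on low counts without the 2.5% libraries. Its rise was thus favoured in advance in Acetatifactor and fixed in L.bacterium335. The gene pflA, which activates pyruvate formate-lyase, rose in F. rodentium (1.53 ± 0.44, adjusted p = 0.039), a call lost in 9 of 18 fits that each left out 1 library. It rose in Acetatifactor (2.14 ± 0.74, adjusted p = 0.0112), and in D. muris it gave -0.29 ± 0.50 (adjusted p = 0.781). ATP synthase genes showed 0 of 6 calls in D. muris, 0 of 8 in F. rodentium and 0 of 3 in X. muris. Beside the shares over all tested genes given above, 3 of 4 rose in Acetatifactor and 5 of 5 in L.bacterium335. Among respiratory genes of D. muris 1 of 13 rose, nqrB of a sodium-pumping dehydrogenase (1.5 ± 0.42, adjusted p = 0.0196).

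Synthesis of the branched-chain amino acids leucine, isoleucine and valine rose in D. muris in 3 of 6 tested genes, against 3.15% of all its genes. In F. rodentium 0 of 7 were called and in X. muris 0 of 4, while 3 of 3 rose in Acetatifactor and 10 of 10 in L.bacterium335. Over all tested genes 51.9% rose in Acetatifactor and 81.9% in L.bacterium335. The D. muris acetolactate synthase gene ilvB, of the first shared step, was at 748 to 2214 CPM (median 1483) at 2.5% and 232 to 1145 CPM (median 449) at 0% (1.44 ± 0.31, adjusted p = 0.00233). The leucine branch gene leuC was at 22.8 to 1417 CPM (median 393) at 2.5% and 0 to 209 CPM (median 154) at 0% (2.13 ± 0.53, adjusted p = 0.00707), and the dehydratase gene ilvD at 819 to 2034 CPM (median 1687) at 2.5% and 299 to 1483 CPM (median 928) at 0% (0.75 ± 0.24, adjusted p = 0.0485). The ranges overlapped for all 3, and ilvD lost its call in 11 of 18 fits that each left out 1 library. The list held a median of 0.462% of the D. muris counts at 2.5% and 0.206% at 0%.

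In F. rodentium none of these genes passed the test (edgeR, 0 with an unadjusted p under 0.05, and 0 in DESeq2), and in X. muris the same held. In F. rodentium ilvD was at 351 to 872 CPM (median 622) at 2.5% and 139 to 1027 CPM (median 571) at 0% (0.13 ± 0.27, adjusted p = 0.822), leuC gave 0.34 ± 0.43 (adjusted p = 0.691) and ilvC 0.26 ± 0.39 (adjusted p = 0.757). In X. muris ilvD gave -0.08 ± 0.51 (adjusted p = 0.918) and ilvC -0.67 ± 0.49 (adjusted p = 0.381), and both turned positive without a scaling factor (1.2 and 0.59). The reductoisomerase gene ilvC rose in Acetatifactor, with 0 to 539 CPM (median 360.1) at 2.5% and 0 to 654 CPM (median 0) at 0% (2.27 ± 0.88, adjusted p = 0.0211), where 8 of 10 libraries at 0% had no count. In L.bacterium335 it had 1765 counts at 2.5% and 0 at 0%, at least 184-fold higher. In neither bacterium could ilvC have passed the filter on low counts without the 2.5% libraries. Its rise was thus favoured in advance in Acetatifactor and fixed in L.bacterium335.

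Other biosynthesis calls were scattered over the bacteria. Over all tested genes 4.38% rose in F. rodentium, 3.15% in D. muris and 11.2% in X. muris. In F. rodentium 2 of 5 tryptophan synthesis genes rose, trpB (2.01 ± 0.60, adjusted p = 0.0425) and trpD (2.13 ± 0.59, adjusted p = 0.0303), and they lost their calls in 13 of 17 and 5 of 18 fits that each left out 1 library. Of its genes for lysine, threonine and methionine 2 of 16 rose, dapL_1 of the lysine pathway, with 50.2 to 229 CPM (median 96.0) at 2.5% and 16.9 to 61.3 CPM (median 35.1) at 0% (1.55 ± 0.34, adjusted p = 0.00714), and the methionine synthase gene metH_2 (1.14 ± 0.33, adjusted p = 0.0403), lost in 8 of 18 such fits. Their D. muris namesakes gave 0 of 12 calls, with 0.58 ± 0.28 for metH (adjusted p = 0.24). Riboflavin synthesis gave 1 call in D. muris, ribBA, with 217 to 567 CPM (median 446) at 2.5% and 53.0 to 269 CPM (median 218) at 0% (1.16 ± 0.34, adjusted p = 0.0234), and 1 in X. muris, ribH. The ribH gene had 390 counts at 2.5% and 3 at 0%, a ratio of 6.85 per count of tested genes with a 95% counting interval of 2.33 to 33.4 (adjusted p = 0.0117). With so few counts at 0%, ribH could pass the filter on low counts only through the 2.5% libraries, so its rise was favoured in advance. The calls of ribBA and ribH were the only ones among the 11 and 7 tested genes of the vitamin and cofactor list in D. muris and X. muris. The nucleotide list of F. rodentium had 1 call each way among 45 genes: the deoxyribose phosphate aldolase gene deoC rose, with 245 to 2934 CPM (median 1263) at 2.5% and 161 to 567 CPM (median 264) at 0% (2.13 ± 0.46, adjusted p = 0.00714), and addA, a nuclease gene that the list's pattern also took in, fell.

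In D. muris and F. rodentium few genes of defence and repair were called. In Acetatifactor 18 of 23 replication and repair genes rose and 1 fell, and 2 of 9 chaperone and protease genes rose and 1 fell, and in L.bacterium335 28 of 31 and 18 of 18 rose. Over all tested genes 51.9% rose and 24.2% fell in Acetatifactor, and 81.9% rose in L.bacterium335. In F. rodentium the thiol peroxidase gene tpx, which removes peroxides, was at 150.5 to 578 CPM (median 319.8) at 2.5% and 515 to 1126 CPM (median 597) at 0% (-0.81 ± 0.21, adjusted p = 0.0206), the 1 call among its 9 peroxide and thioredoxin genes. In D. muris the thioredoxin gene trxA_1 was the 1 call among 3, with 52.6 to 283 CPM (median 163) at 2.5% and 209 to 1009 CPM (median 497) at 0% (-1.55 ± 0.37, adjusted p = 0.00425), and in F. rodentium trxA_1 gave -0.87 ± 0.34 (adjusted p = 0.119). Among chaperones and proteases 1 of 13 fell in F. rodentium, htpG (-0.88 ± 0.27, adjusted p = 0.0475), a call lost in 11 of 18 fits that each left out 1 library. The abundant chaperone gene dnaK gave -0.71 ± 0.31 in F. rodentium (adjusted p = 0.166) and -0.45 ± 0.29 in D. muris (adjusted p = 0.415). The recombination gene recD of F. rodentium had 210 counts at 2.5% and 0 in all 10 libraries at 0%, at least 299-fold higher (adjusted p = 9.11e-06), although 1 library at 2.5% also had no count. The filter on low counts took recD in only through the 2.5% libraries, so it could only come out higher. Bile salt hydrolase, cbh_1, which removes the amino acid from conjugated bile acids, fell in F. rodentium, with 76.4 to 556 CPM (median 277) at 2.5% and 387 to 1072 CPM (median 738) at 0% (-1.13 ± 0.28, adjusted p = 0.0157). The bile acid dehydrogenase gene baiA gave -0.28 ± 0.18 there (adjusted p = 0.374) and rose in Acetatifactor (2.21 ± 0.78, adjusted p = 0.0132).

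Genes of sensors and of mobile elements fell in part in D. muris and, depending on the scaling, in Acetatifactor. Sensors of the histidine kinase type and regulators, by which bacteria read their surroundings, fell in 5 of 13 tested genes of D. muris, against 6.7% of all its genes, and 0 of 10 were called in F. rodentium (4 with an unadjusted p under 0.05 in edgeR, and 2 called higher by DESeq2). In Acetatifactor 6 rose and 11 fell of 20, beside 51.9% higher and 24.2% lower over all its tested genes, and 8 rose and 3 fell with RLE factors. In L.bacterium335 26 rose and 5 fell of 42, beside 81.9% higher and 5.81% lower over all its tested genes. The D. muris sensor gene rcsC_2 was at 591 to 3148 CPM (median 1928) at 2.5% and 3165 to 13839 CPM (median 6624) at 0%, with no overlap (-1.81 ± 0.31, adjusted p = 0.000487), and sasA_6 at 258 to 999.6 CPM (median 627) at 2.5% and 539 to 4862 CPM (median 2548) at 0% (-1.91 ± 0.36, adjusted p = 0.00113). The Acetatifactor gene rcsC_8 was at 62.9 to 718 CPM (median 114) at 2.5% and 442 to 2843 CPM (median 1499.6) at 0% (-3.20 ± 0.56, adjusted p = 3.46e-05), with its call lost with RLE factors (adjusted p = 0.0625). Flagella and chemotaxis genes rose in 8 and fell in 1 of 9 in Acetatifactor and rose in 30 of 30 in L.bacterium335, beside 51.9% and 81.9% higher over all tested genes. The chemotaxis coupling gene cheV gave 3.15 ± 0.80 in Acetatifactor (adjusted p = 0.00125), and in L.bacterium335 8811 counts at 2.5% and 0 at 0%, at least 920.0-fold higher. In neither bacterium could cheV have passed the filter on low counts without the 2.5% libraries. Its rise was thus favoured in advance in Acetatifactor and fixed in L.bacterium335.

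Genes of antibiotic resistance and mobile elements fell in 4 of 6 tested genes of D. muris, against 6.7% of all its genes, and in 7 of 11 of Acetatifactor, against 24.2%. Of 9 in L.bacterium335, 3 rose and 1 fell, beside 81.9% higher and 5.81% lower over all its tested genes. In F. rodentium 0 of 2 were called. The Acetatifactor count was 0 with RLE factors and 6 without a scaling factor, and the 1 fall of L.bacterium335 became 0 and 5, while in D. muris 4 fell under both. The list held a median of 0.688% of the D. muris counts at 2.5% and 1.90% at 0%, 0.644% and 1.34% in Acetatifactor, 1.26% and 3.23% in L.bacterium335, and 0.0592% and 0.0591% in F. rodentium. The ranges overlapped in all 4, in Acetatifactor through 2.5% replicate 8 and in L.bacterium335 through 2.5% replicate 9. In counts, D. muris libraries held 436 to 1255 at 2.5% and 216 to 867 at 0%, Acetatifactor 336 to 1626 at 2.5% and 353 to 734 at 0%, and L.bacterium335 3454 to 8366 at 2.5% and 1111 to 3959 at 0%.

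The tetracycline resistance gene tet(Q) of D. muris, which protects ribosomes, was at 413 to 4060.2 CPM (median 2214) at 2.5% and 2538 to 15569.5 CPM (median 8437) at 0% (-1.99 ± 0.42, adjusted p = 0.0034). The intron reverse transcriptase gene ltrA_1 was at 91.2 to 736 CPM (median 372) at 2.5% and 554 to 10422 CPM (median 1642) at 0% (-2.75 ± 0.59, adjusted p = 0.00425). The recombinase genes xerC_5 (-1.53 ± 0.37, adjusted p = 0.0091) and xerC_6 (-1.53 ± 0.40, adjusted p = 0.0148) fell as well, and both lost their calls when libraries below 10000 counts were kept (adjusted p = 0.361 and 0.259). All 4 had overlapping ranges. In Acetatifactor the recombinase gene xerC_13 was at 217 to 1834 CPM (median 469) at 2.5% and 2581 to 6580.1 CPM (median 4043) at 0% and the transposon integrase gene Int-Tn_3 at 421 to 2351 CPM (median 735) at 2.5% and 3312 to 9357 CPM (median 5315) at 0%, both without overlap. Their log2 fold changes were -2.47 ± 0.44 (adjusted p = 4.31e-05) and -2.28 ± 0.42 (adjusted p = 4.88e-05), and with RLE factors -0.75 and -0.56 (adjusted p = 0.113 and 0.193).

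**Figure D4:**
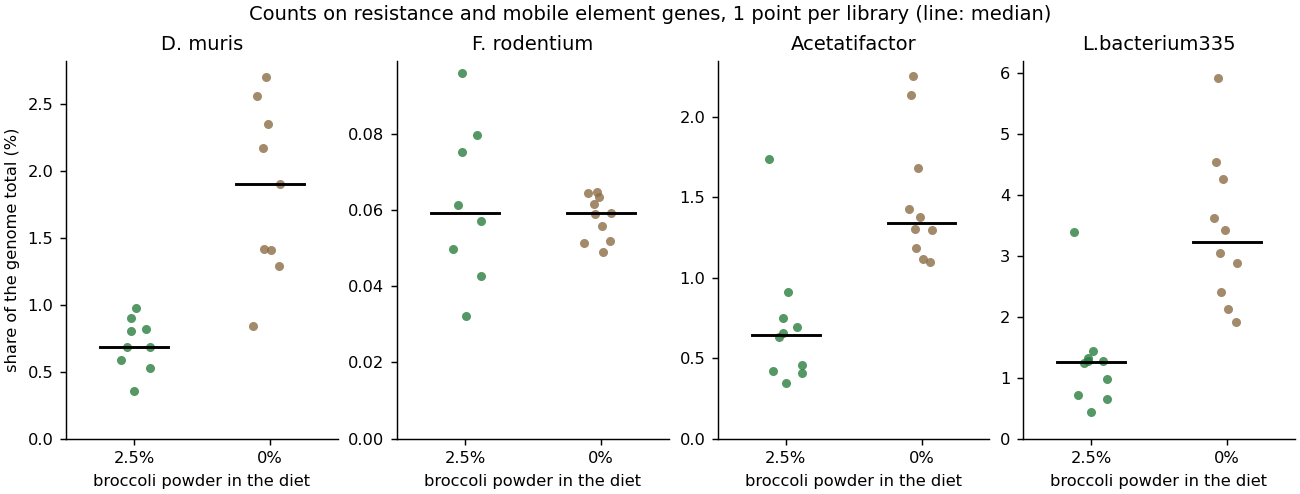
Share of a genome's counts on resistance and mobile element genes, in percent, with 1 point per kept library, a line at the median, 2.5% left of 0% and a separate axis for each bacterium. Most 2.5% libraries of D. muris, Acetatifactor and L.bacterium335 lie below most 0% libraries, and in F. rodentium the medians are 0.0592% and 0.0591%.

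Whether a gene responded differently in 2 bacteria was tested directly for symbols that both held in a single copy, with the libraries shared by both. Between D. muris and F. rodentium, 1 of 205 shared genes passed (0.488%), tuf, with a difference of -0.85 ± 0.21 on the log2 scale (D. muris minus F. rodentium, adjusted p = 0.0343). That call was lost in 9 of 17 fits that each left out 1 library. The genes called in F. rodentium alone did not pass: deoC differed by -1.54 ± 0.50 (adjusted p = 0.113) and trpB by -2.08 ± 0.69 (adjusted p = 0.113). Nor did those called in D. muris alone: ilvD differed by 0.51 ± 0.35 (adjusted p = 0.517) and leuC by 1.10 ± 0.67 (adjusted p = 0.439). The D. muris calls of ilvD and leuC are thus not shown to differ from F. rodentium, and 31 of the 205 genes had an unadjusted p under 0.05.

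Between D. muris and X. muris 3 of 132 shared genes passed (2.27%), all with the higher fold change in X. muris. The gene rnr, of a ribonuclease, differed by -3.08 ± 0.61 (D. muris minus X. muris, adjusted p = 6.39e-05), uxaC by -2.51 ± 0.61 (adjusted p = 0.00262), and fabG, of fatty acid synthesis, by -2.26 ± 0.62 (adjusted p = 0.0137). The fabG call was lost without 0% replicate 1 (adjusted p = 0.0542) and with RLE factors (adjusted p = 0.0837). In X. muris uxaC could not have passed the filter on low counts without the 2.5% libraries. A higher fold change of uxaC there was therefore favoured in advance. In X. muris rnr was at 429.9 to 947 CPM (median 642) at 2.5% and 0 to 237 CPM (median 108) at 0%, with no overlap (2.49 ± 0.54, adjusted p = 0.000155). Its log2 fold change was -0.71 ± 0.26 in D. muris (adjusted p = 0.0812) and -0.70 ± 0.22 in F. rodentium (adjusted p = 0.0541), and the difference between these was 0.10 ± 0.37 (adjusted p = 0.967).

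Between F. rodentium and X. muris 4 of 126 shared genes passed (3.17%), again all with the higher fold change in X. muris. The smallest p was that of rnr, with -3.32 ± 0.52 (F. rodentium minus X. muris, adjusted p = 2.74e-08). The others were the methionine tRNA ligase gene metG (-2.14 ± 0.57, adjusted p = 0.0121), the ribosome maturation gene rimP (-3.53 ± 1.07, adjusted p = 0.0409) and the transfer RNA methylation gene trmB (-3.40 ± 1.07, adjusted p = 0.0465). These 3 lost their calls with RLE factors or when the median difference over the shared genes was set to 0 (adjusted p from 0.177 to 0.232), and rimP and trmB also in 8 and 9 of 15 fits that each left out 1 library. In X. muris trmB had 2 counts in all at 0% and 525 at 2.5%, a ratio of 13.8 per count of tested genes with a 95% counting interval of 3.81 to 115. With so few counts at 0%, trmB could pass the filter on low counts only through the 2.5% libraries, so its rise was favoured in advance. The same held for rimP, whose highest level in an X. muris library at 0% was 94.2 CPM, in replicate 7. No shared ribosomal protein gene passed between D. muris and F. rodentium (0 of 32), D. muris and X. muris (0 of 26) or F. rodentium and X. muris (0 of 25).

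**Figure D5:**
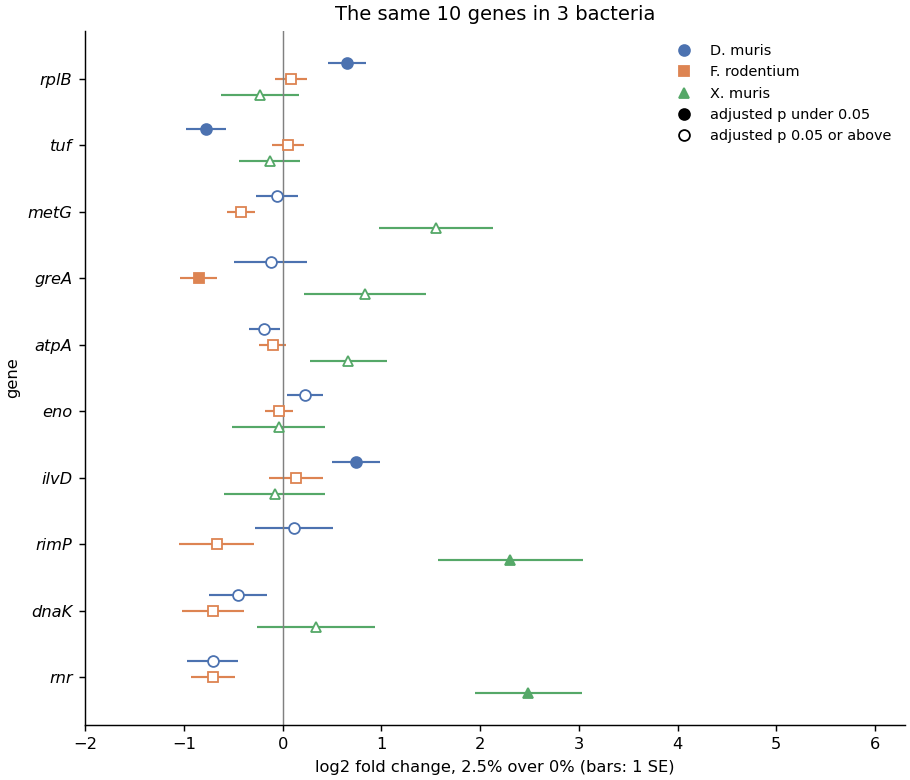
The same 10 genes in D. muris, F. rodentium and X. muris, as the log2 fold change of 2.5% over 0% on the x axis with bars of 1 standard error. Filled symbols passed the adjusted threshold of 0.05. The values of rplB, tuf, eno and ilvD lie within 1 log2 unit of 0 in all 3, and rnr, rimP and metG lie above 1 in X. muris only.

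Against Acetatifactor and L.bacterium335, most shared genes passed, except between X. muris and Acetatifactor. Of those shared with Acetatifactor, 49 of 58 passed for D. muris (84.5%) and 71 of 79 for F. rodentium (89.9%), and of those shared with L.bacterium335, 138 of 139 for D. muris (99.3%), 194 of 197 for F. rodentium (98.5%) and 84 of 86 for X. muris (97.7%). Between X. muris and Acetatifactor 0 of 37 passed in edgeR, with 13 at an unadjusted p under 0.05, and 31 passed with RLE factors. Between Acetatifactor and L.bacterium335 71 of 83 passed (85.5%). The genes of L.bacterium335 in these comparisons passed the same filter, through which most of its tested genes had to be higher, so these shares are descriptions and no evidence on single genes. With the median difference set to 0, calls numbered 1 for D. muris and Acetatifactor, 3 for F. rodentium and Acetatifactor, 3 for Acetatifactor and L.bacterium335, 8 for X. muris and L.bacterium335, 19 for D. muris and L.bacterium335 and 22 for F. rodentium and L.bacterium335.

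Alistipes had counts to describe only at 2.5%, where 7 libraries held at least 10000, while the 10 libraries at 0% held 51 to 336 each. The 7 libraries gave 145374 counts on 1621 of its 1713 features, and all 10 libraries at 0% gave 1620 counts on 189 features, so no change within this genome was tested. At 2.5% a median of 3.46% of its counts lay on ribosomal protein genes, with counts on 45 of 45, 1.72% on glycolysis (11 of 11) and 1.58% on pectin and uronate breakdown (13 of 13). Rhamnose and fucose genes held 1.14% (15 of 15). The most counted genes with a symbol were tufA, the elongation factor gene, with a median share of 0.917%, btuB_2, of an outer membrane receptor for cobalamin, with 0.659%, and ppdK, of pyruvate phosphate dikinase, with 0.596%. At 0% the pectin list had 31 counts on 5 genes, and the ribosomal list 472 counts on 18.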

How the data were processed

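RNA of mouse cecal contents was depleted of ribosomal RNA, made into libraries and sequenced, per the labels' protocols. The authors deposited counts per annotated feature, 1 table for each of 6 bacterial genomes, not normalized. The aligner, the counting tool, the treatment of reads that match several genomes and the builds of the genomes are not stated there. All columns of the tables belong to samples of the series (0 columns in no sample), and groups follow the treatment labels. The members and the function lists were chosen with earlier results of these data known.

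Features with the symbol of a stable RNA (ribosomal and transfer RNA, ffs, rnpB and ssrA) were left out of the gene tests and of the breadth measures. A stable RNA deposited without such a symbol was not recognized and stayed in. The library totals, the minimum of 10000 counts and the shares based on these totals included them. Libraries under 10000 counts in a table were left out of that table. Genes passed edgeR's filterByExpr when enough counts stood in 70% of the libraries of the smaller group, a setting chosen after the preset had been seen to drop most genes detected only at 2.5%. Counts were scaled by TMM factors and tested with glmQLFit and glmQLFTest, two-sided, with Benjamini-Hochberg adjustment over all tested genes of a genome (R 4.3.3, edgeR 4.0.16, limma 3.58.1). CPM scale a count to the TMM-adjusted total over tested genes. The ± beside a log2 fold change is its standard error. DESeq2 1.42.0, RLE factors, no scaling factor, other filters and minimums, all 4 diet groups in the fit and the genome total as a covariate were alternatives. A gene with 0 counts in all libraries at 0% got only a lower bound, from a floor of 3 counts over the group, and one with 1 to 3 counts a ratio with a 95% interval, both of counting error only.

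The same symbol was compared between bacteria in 1 model per pair of genomes, over the libraries kept in both, with each library as a block. Breadth was compared by permutation tests in scipy 1.17.1, exact where a group held fewer than 10 libraries and otherwise with 100000 resamples, adjusted over 10 comparisons. Symbols as deposited cover 18.4% (X. muris) to 49.2% (Alistipes) of features, and genes without one are in no list. The genes named are the largest changes of each bacterium, members of the function lists called there or shared by most bacteria, called pairs and the most counted genes, with mglA, gpmI, eno and the values of called genes in further bacteria added after values were seen. The test was also run on simulated counts with known changes, and recovery was taken over the changed genes that passed the filter again. It was 98.9% of 4-fold changes in D. muris, 100% in F. rodentium, 97.5% in X. muris, 67.1% in Acetatifactor and 73.4% in L.bacterium335. For 2-fold changes it was 58.4%, 56.7%, 35.7%, 6.67% and 8.25%, in the same order. The 4-fold values rest on 88, 98, 80, 76 and 94 genes, and changed genes that the filter dropped were not counted.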

Additional observations from a re-analysis of the deposited data

Results flagged for a closer look

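Single libraries stood apart from the rest of their group in 28 of 264 groups tested (10.6%), where chance gives about 1 in 20. They are given as the library's value, with no explanation tested.

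In D. muris these were gyrB_2 with 1578 CPM in 2.5% replicate 3, xerC_5 with 3313 CPM in 2.5% replicate 5, and susC_3 with 3027 CPM in 0% replicate 10, the lowest of its group. In F. rodentium 2.5% replicate 4 was highest for agaC (1484 CPM) and trmB (719 CPM), 2.5% replicate 1 for dapL_1 (229 CPM), 2.5% replicate 2 for pflA (251 CPM), 0% replicate 2 for tpx (1126 CPM) and 0% replicate 5 for trpB (73.3 CPM). In X. muris atpA reached 1204 CPM in 2.5% replicate 8. At 0%, single libraries of X. muris held eno at 1507 CPM and ribH at 108 CPM (replicate 6), feoB at 113 CPM and rimP at 94.2 CPM (replicate 7), and greA at 463 CPM and trmB at 185 CPM (replicate 1). In Acetatifactor rcsC_8 reached 718 CPM in 2.5% replicate 4, cheV 177 CPM in 0% replicate 9, and ilvC 654 CPM and thlA 561 CPM in 0% replicate 8. Its resistance and mobile element list held 1.74% of the counts in 2.5% replicate 8.

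In L.bacterium335 the library 2.5% replicate 9 was apart in 5 measures: it had 359.7 features among 10000 counts, 79.1% of its counts on the 5 most counted features, 3.39% on resistance and mobile elements, 0 CPM of cheV and 657 CPM of msmX, the lowest of the 2.5% libraries for both genes. At 0%, msmX was highest in replicate 4 (556 CPM) and tuf in replicate 5 (1787 CPM).

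Among the 3 pairs of D. muris, F. rodentium and X. muris, the diet effect differed by the test of the difference itself in 8 cases. The pairs with Acetatifactor and L.bacterium335, where most shared genes passed, are not listed here. On the log2 scale these were tuf between D. muris and F. rodentium (-0.85), rnr (-3.08), uxaC (-2.51) and fabG (-2.26) between D. muris and X. muris, and rnr (-3.32), metG (-2.14), rimP (-3.53) and trmB (-3.40) between F. rodentium and X. muris, each as the first bacterium minus the second. For uxaC, rimP and trmB the direction in X. muris was favoured by the filter on low counts, as said above.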

How the results depend on the processing

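Directions held in every alternative run for the called genes given with values, and no called value changed sign. Over the single genes, leaving out 1 library kept 2181 values on their side of the threshold, while 180 lost a call, 14 gained one and 33 moved. The other alternatives kept 960, lost 131, gained 18 and moved 32. The causes were not tested. The preset of filterByExpr was tried after seeing the data.

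In Acetatifactor RLE factors left 16 genes lower and no scaling factor 78. Leaving out the 5 most counted features gave 221 higher and 48 lower, no filter 2302 and 285, DESeq2 2543 and 31, all 4 diet groups 554 higher, the genome total as a covariate 3 and 15, and filterByExpr as preset 151 and 55. In D. muris no scaling factor gave 58 higher, no filter 77 higher and 103 lower, DESeq2 82 and 108, and the covariate 0 and 0. In F. rodentium RLE factors gave 29 lower and no scaling factor 20, no filter 113 higher, DESeq2 140 higher, a minimum of 50000 counts 11 lower, all 4 diet groups 68 lower, and the covariate 11 higher and 13 lower. In L.bacterium335 RLE factors gave 22 lower and no scaling factor 192, leaving out the 5 most counted features 434 higher and 35 lower, no filter 3368 and 29, DESeq2 2903 and 40, all 4 diet groups 267 lower, the covariate 4 lower, and filterByExpr as preset 68 higher and 27 lower. In X. muris RLE factors gave 36 higher and 20 lower, no scaling factor 591 and 6, no filter 205 and 19, DESeq2 47 and 38, no minimum 52 higher, and the covariate 11 and 5. The share of F. rodentium counts on its 20 most counted features differed by -0.429 percentage points (exact permutation test, adjusted p = 0.7).

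Between bacteria, the fit without the library block called 4 genes for D. muris and F. rodentium, 5 for D. muris and X. muris and 13 for X. muris and Acetatifactor. With the median difference set to 0, calls numbered 1 for D. muris and Acetatifactor, 19 for D. muris and L.bacterium335, 1 for F. rodentium and X. muris, 3 for F. rodentium and Acetatifactor, 22 for F. rodentium and L.bacterium335, 8 for X. muris and L.bacterium335 and 3 for Acetatifactor and L.bacterium335. With RLE factors they numbered 1 for F. rodentium and X. muris, 31 for X. muris and Acetatifactor and 42 for Acetatifactor and L.bacterium335.

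Leaving out 1 library at a time gave 268 to 402 genes higher and 85 to 163 lower in Acetatifactor (85 without 0% replicate 8, 97 without 2.5% replicate 8), and 21 to 50 higher and 62 to 78 lower in D. muris (48 and 50 higher without 0% replicate 3 and 10). It gave 40 to 88 higher and 22 to 79 lower in F. rodentium, with 40 higher without 0% replicate 7, 41 without 0% replicate 6 and 44 without 2.5% replicate 3. There 22 were lower without 2.5% replicate 3, 27 without 0% replicate 7, 28 without 0% replicate 4 or 6, and 79 without 2.5% replicate 7. In L.bacterium335 it gave 992 to 1203 higher and 12 to 65 lower, so that most single libraries moved the lower count. In X. muris it gave 52 to 220 higher (220 without 0% replicate 7, 52 without 2.5% replicate 3, 57 without 2.5% replicate 4 or 10) and 9 to 12 lower. The calls between bacteria ranged from 0 to 3 (D. muris and F. rodentium), 3 to 8 (D. muris and X. muris) and 2 to 8 (F. rodentium and X. muris), the highest without 0% replicate 7 in both pairs with X. muris. Against Acetatifactor they ranged from 30 to 57 for D. muris, 54 to 78 for F. rodentium and 0 to 32 for X. muris, the 32 without 2.5% replicate 8. Against L.bacterium335 they ranged from 122 to 156 for D. muris, 172 to 198 for F. rodentium, 64 to 98 for X. muris and 58 to 83 for Acetatifactor. The differences in features per 10000 counts lay between 978 and 1168 for Acetatifactor, 167 and 206 for D. muris, 11.6 and 65.4 for F. rodentium, 1163 and 1326 for L.bacterium335, and 675 and 812 for X. muris. Those in the share of the 5 most counted features ranged from -27.5 to -24.3, -5.50 to -4.46, -0.233 to 0.451, -56.7 to -49.4 and -35.8 to -30.5 percentage points in the same order.

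No paired analysis was possible because the labels carry no replicate numbers and those used here follow the order of the samples. A minimum of 50000 counts was not run for Acetatifactor, D. muris and X. muris. Low totals at 0% limit all bacteria but F. rodentium, and at 2.5% F. rodentium.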
